A study of Mus musculus with 19 samples.

Results

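The genes described here carry the symbols of proteins of the cytosolic ribosome, the particle that translates nuclear-encoded mRNAs. A gene was included when its symbol was Rpl or Rps followed by a number, with an optional final a, x, y or l, or was Rplp0, Rplp1, Rplp2 or Rpsa. This rule used no expression value and found 84 of the 18639 gene symbols in the table, 51 named for the large and 33 for the small ribosomal subunit. GENCODE annotates 2 of them, Rps4l and Rpl32l, as processed pseudogenes. All 84 passed the filter on low values (1 or more normalized reads in 2 or more of the 14 whole-cochlea libraries of sorted cells) and so entered every test. Only Rpl3l and Rpl39l stayed under 100 normalized reads in each of the 19 libraries.

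Cells came from the cochlea, which holds the sensory cells of hearing, of heterozygous CX3CR1 GFP/+ mice, a genotype shared by all groups. In these mice a green fluorescent protein gene replaces 1 copy of Cx3cr1, a chemokine receptor of macrophages, so the animals also carry a single working copy of that receptor. Sorting by GFP gave a positive fraction, called macrophages, and a negative fraction, called nonmacrophages, and each library came from 1 mouse. Whole cochleae gave 2 macrophage libraries (replicates 9 and 15) and 4 nonmacrophage libraries (2, 5, 6 and 14) from young mice of 1.5 months. Old mice of 12 to 14 months gave 4 macrophage libraries (1, 7, 12 and 17) and 4 nonmacrophage libraries (10, 11, 18 and 19). Single young libraries held auditory nerve macrophages (3) and nonmacrophages (8), lateral wall macrophages (4) and nonmacrophages (16), and an unsorted cochlea (13).

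Ribosomal proteins are made in near-equal numbers, since each ribosome holds a single copy of most of them. Their mRNAs are among the most abundant of a cell, and most begin with a run of pyrimidines, the TOP motif, through which the mTOR pathway controls their translation. Transcription of these genes is known to rise in growing and activated cells, macrophages included. In the mouse genome most of them have many processed pseudogenes, copies that can share short reads with the parent gene.

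Sequences around the start of transcription are shown for 7 members on which the results below turn: 4 that were lower in old macrophages (Rpsa, Rps2, Rplp0 and Rps18), 2 that stood above the other members there (Rpl38 and Rpl22l1), and Rps27, a small-subunit protein that did not pass with age. They are from RefSeq on GRCm38.p6, run 5′ to 3′ on the strand of the gene, and cover 60 bases before and 20 bases from the start. Capitals mark any of 6 motifs searched on both strands, so that the reverse complement also counts. These are the pyrimidine runs CTTTC and the longer CTTTTC (which does not contain the former), the ETS core CCGGAAG, the YY1 form GCCATNTT, the TATA box TATAAA and the GC box GGGCGG.
Rpsa, chr9:120127706-120127785, plus strand: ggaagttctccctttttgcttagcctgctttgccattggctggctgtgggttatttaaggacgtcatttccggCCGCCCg
Rps2, chr17:24720003-24720082, plus strand: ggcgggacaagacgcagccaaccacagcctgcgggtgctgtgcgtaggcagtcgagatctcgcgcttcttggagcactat
Rplp0, chr5:115559407-115559486, plus strand: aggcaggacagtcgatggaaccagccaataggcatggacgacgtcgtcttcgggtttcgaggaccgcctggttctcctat
Rps18, chr17:33955646-33955725, minus strand: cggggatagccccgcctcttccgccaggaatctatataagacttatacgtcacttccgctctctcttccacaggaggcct
Rps27, chr3:90213629-90213708, minus strand: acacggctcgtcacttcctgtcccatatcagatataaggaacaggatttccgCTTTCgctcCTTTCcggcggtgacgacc
Rpl38, chr11:114668520-114668599, plus strand: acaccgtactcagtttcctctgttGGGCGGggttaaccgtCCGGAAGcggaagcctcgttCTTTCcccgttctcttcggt
Rpl22l1, chr3:28805448-28805527, plus strand: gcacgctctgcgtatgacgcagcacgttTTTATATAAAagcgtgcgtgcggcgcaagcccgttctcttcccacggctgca

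RefSeq start windows, from 250 bases before to 50 bases after a start, were matched by symbol for 63 of the 84 members, in 75 windows. CCGGAAG, the core bound by ETS factors such as GABPA, was found in 36% of these windows and in 8.86% of all 32851 windows. GCCATNTT, a form of the YY1 motif, was found in 22.7% against 6.05%, and GGGCGG, the GC box, in 58.7% against 35.7%. TATAAA was found in 10.7% against 13.6%. Within 20 bases on either side of the start, on the strand of the gene, CTTTC was found in 25.3% of the members' windows and in 5.49% of all windows, and CTTTTC in 6.67% against 1.43%. Over the whole window on both strands the shares were 80% against 57.3% for CTTTC and 25.3% against 21.8% for CTTTTC. Of the 7 printed stretches, those of Rps27 and Rpl38 hold CTTTC at the start, that of Rpl38 holds CCGGAAG and that of Rpl22l1 holds TATAAA. A match is a description of the letters and not a shown binding site.

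Depth ranged from 20.6 to 71.6 M reads (M, mega) assigned to genes. Depth nearly coincided with age: old libraries held 50.6 to 71.6 M, and young sorted whole-cochlea libraries 24.9 to 35.1 M apart from nonmacrophage replicate 14 with 60.2 M. All 12 macrophage markers passed the test as higher in the macrophage sort at both ages, and so did 7 of 8 neuron markers. Of all genes, 9.25% were higher in the old and 9.18% in the young macrophage sort. The summed neuron markers reached 146231 to 320768 normalized reads in whole-cochlea macrophage libraries and 5506 to 30986 in whole-cochlea nonmacrophage libraries, so GFP-positive libraries also held neuronal RNA. In such bulk libraries fewer cells of a type and less RNA per cell cannot be told apart. P-values measure the spread between libraries, which were taken as separate replicates. No label says whether a macrophage and a nonmacrophage library came from the same mouse. Tests that compare the sorts therefore do not allow for any such pairing.

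The members took 0.36% to 2.00% of the reads of a library. In young macrophages they took 1.76% (replicate 9) and 0.84% (replicate 15), and in old macrophages 0.65%, 0.55%, 0.66% and 0.79% (replicates 1, 7, 12 and 17). In young nonmacrophages they took 2.00%, 0.75%, 1.60% and 0.74% (replicates 2, 5, 6 and 14), and in old nonmacrophages 0.64%, 0.63%, 0.65% and 0.68% (replicates 10, 11, 18 and 19). Means were 1.30% ± 0.65 (SD, n = 2), 0.662% ± 0.101 (SD, n = 4), 1.27% ± 0.63 (SD, n = 4) and 0.652% ± 0.020 (SD, n = 4) in that order. Each young library lay above the mean of the old libraries of its sort, but 3 young libraries, macrophage replicate 9 and nonmacrophage replicates 2 and 6, stood apart at 1.60% and above while the other 3 lay at 0.74% to 0.84%. Counting error is far smaller than this spread: the exact 95% binomial interval of replicate 9 is 1.76% to 1.77%, an interval for counting error alone, as the protocols name no molecular identifiers.

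**Figure D1:**
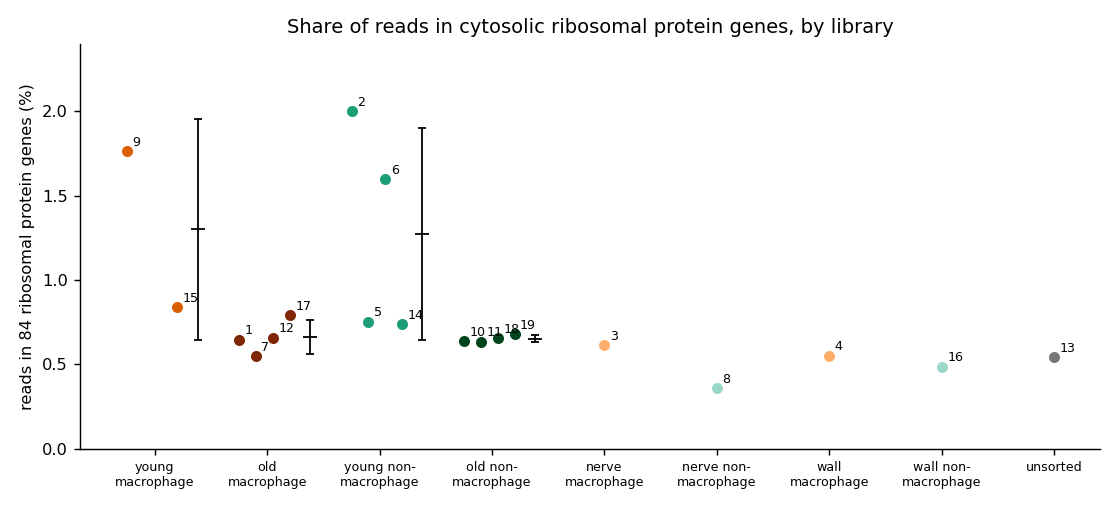
Percent of reads in the 84 ribosomal protein genes (y axis) for each library, by group (x axis), with the replicate number beside each point; bars give the mean and SD of groups with more than 1 library, and nerve and wall stand for the auditory nerve and the lateral wall. Young macrophage replicate 9 and young nonmacrophage replicates 2 and 6 lie at 1.76%, 2.00% and 1.60%, and the 8 old libraries between 0.55% and 0.79%.

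Gene number and subunit ratio set the 3 libraries with high shares apart from the old libraries, but not from young macrophage replicate 15. These 3 libraries had reads in 11652, 14399 and 14879 genes (replicates 9, 2 and 6), against 13532 to 17200 in the other 3 young libraries and 16750 to 17708 in the old ones. Their ratio of large-subunit to small-subunit reads was 1.27, 1.39 and 1.41, against 1.55 to 1.59 in the old libraries and 1.40, 1.65 and 1.58 in young macrophage replicate 15 and young nonmacrophage replicates 5 and 14. Nonmacrophage replicate 2 also had the highest sum of erythroid markers, 1785500 normalized reads, against 13616 to 493972 in the other young nonmacrophage libraries. Short genes in general were high in these libraries: among 824 other genes with a coding length of 462 bases or less, the median difference from the 8 old libraries was 1.43, 1.34 and 0.86 on the log2(value + 1) scale, and it was -0.76, -0.30 and -0.24 among longer genes. The members with coding lengths up to 462 bases lay 1.93, 2.13 and 1.38 above the old libraries in replicates 9, 2 and 6, and those with longer coding lengths 2.05, 2.02 and 1.72 above. The part of depth, gene number, length and blood cell RNA in the results below was not tested.

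Within a library the order of the members was close to constant. Per kilobase of exon, the highest medians over the 14 sorted whole-cochlea libraries were those of the stalk protein Rplp1 with 7153 normalized reads per kilobase (range 5751 to 36069), of Rps3a1 with 6265 and of Rpl36 with 6216. The lowest were those of Rpl3l with 0.17, Rpl39l with 1.07 and Rps15a with 83.2. Spearman's rho between the profiles of 82 members, leaving out Rpl3l and Rpl39l, had a median of 0.99 (lowest 0.93) over the 19 pairs of libraries of a group and 0.92 (lowest 0.82) over the 152 pairs between groups. After each library was centred on the median of the members, the median SD of a member within a group was 0.24 in young macrophages, 0.12 in old macrophages, 0.25 in young nonmacrophages and 0.07 in old nonmacrophages (log2 scale). Before centring it was 1.04, 0.23, 1.04 and 0.11, so most of the spread between young libraries was shared by the members. For all genes the median SD was 0.75, 0.33, 0.83 and 0.21 in the same groups, so it too was larger in the young ones.

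**Figure D2:**
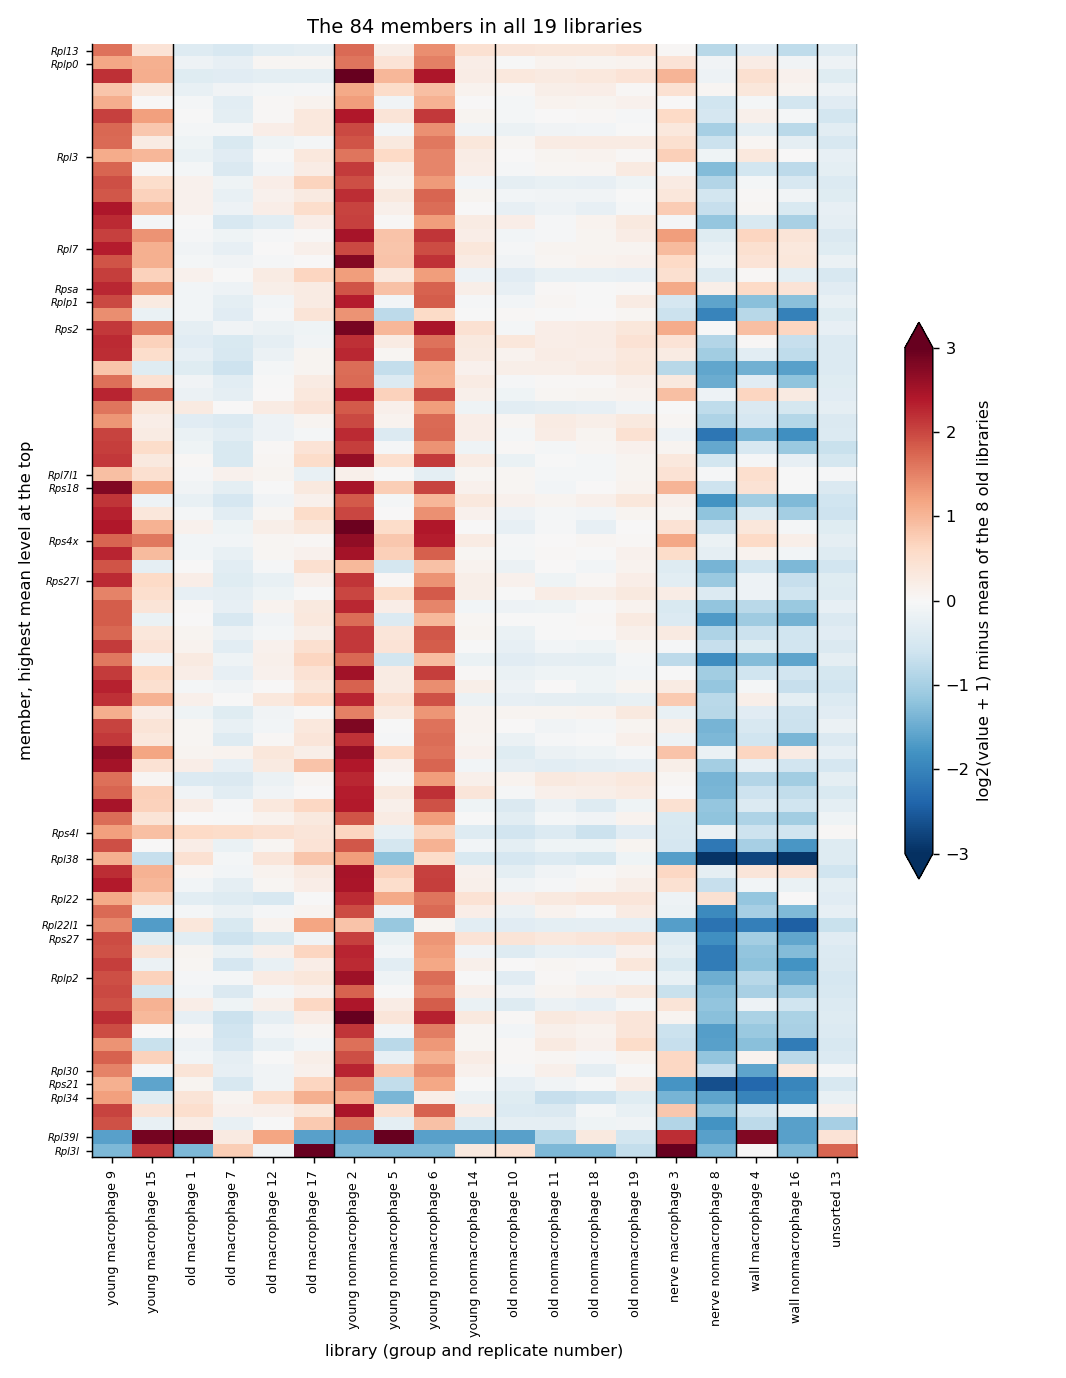
Rows are the 84 members, highest mean level at the top (some are labelled), and columns the 19 libraries in their groups; colour is log2(value + 1) minus the member's mean over the 8 old libraries, from -3 (blue) to 3 (red). Almost every row is red in young macrophage replicate 9 and young nonmacrophage replicates 2 and 6. Most rows are blue in the auditory nerve nonmacrophage, both lateral wall and the unsorted libraries. In the lateral wall macrophage library the members with coding lengths over 462 bases lie near 0 (median 0.05).

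Between old and young macrophages the question was which ribosomal protein genes differed with age. In the fit to all 14 libraries 21 of the 84 members were lower in old macrophages and none was higher (limma, Benjamini-Hochberg adjusted p under 0.05 over 18441 genes, of which 5.57% were lower). Of these 21, 12 belong to the large and 9 to the small subunit. The fit shared 1 estimate of spread among 4 groups, although the young groups varied more than the old ones. The median SD of a member was 1.04 in young and 0.23 in old macrophages. The median difference of the 84 members was -1.17 and that of all genes 0.88 on the log2 scale, and 78 members lay below 0. The median of all genes moved with the scaling, to -0.07 with quantile normalization and 1.15 with a common total per library, where the members' median was -0.94 and -0.81. The members' median minus that of all genes was thus -2.05, -0.87 and -1.95, and 15 and 14 members were lower under these scalings, beside 12.3% and 3.3% of all genes. Quantile normalization also changed the split of all calls, from 4441 higher and 1027 lower to 2292 higher and 2277 lower.

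Among small-subunit proteins, Rpsa, which is also known as the precursor of the laminin receptor, had 15522 and 7913 normalized reads in young macrophages (replicates 9 and 15). In old macrophages it had 3049, 2938, 3654 and 3817 (replicates 1, 7, 12 and 17). The groups did not overlap, and the difference was -1.73 ± 0.41 (SE, adjusted p = 0.0081). Rps2, which sits where mRNA enters, had 11960 and 7860 in young and 2263, 2552, 2434 and 2484 in old macrophages (-2.0 ± 0.51 SE, adjusted p = 0.0118). For Rps2 the lower young library lay more than 2-fold above every old library. Rps18, of the head of the small subunit, had 15687 and 5271 in young and 2155, 1888, 2298 and 2815 in old macrophages (-2.0 ± 0.56 SE, adjusted p = 0.0183), so its young libraries differed from each other more than those of Rps2.

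Among large-subunit proteins, Rpl7 had 17551 and 7161 normalized reads in young macrophages and 3177, 2884, 3415 and 3774 in old macrophages (-1.77 ± 0.44 SE, adjusted p = 0.0100). Rpl3, which reaches towards the peptidyl transferase centre, had 10554 and 9607 in young and 4208, 3827, 4775 and 6083 in old macrophages (-1.11 ± 0.34 SE, adjusted p = 0.0269). Rplp0, the base of the stalk that receives elongation factors, had 19942 and 18533 in young and 7987, 7450, 9183 and 9285 in old macrophages (-1.19 ± 0.34 SE, adjusted p = 0.0207). For Rpl3 and Rplp0 the 2 young libraries were close to each other and both above every old library. The other stalk proteins, Rplp1 and Rplp2, did not pass the test. Rps27, a zinc-binding small-subunit protein, had 4364 and 870 in young and 902, 736, 822 and 1046 in old macrophages, and young replicate 15 fell inside the old range (-1.16 ± 0.61 SE, adjusted p = 0.162).

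In all, 50 of the 84 members had every old macrophage library below both young libraries, as did 13.4% of all genes tested. Replicate 9 lay above all 4 old libraries for 82 members, and replicate 15 for 50, while replicate 15 lay below all 4 for 7 members. Replicate 9 exceeded replicate 15 for 82 members, with a median ratio of 2.74. No share of all genes was counted for replicates 9 and 15 taken singly or against each other, so these counts have no baseline. The result rests on replicate 9: without it no member was lower and 1 was higher (24.7% of all genes tested were called in either direction), and the median of the members was -0.41. In that fit the lone young library was assumed to vary like the other groups. Rps2 was then at -1.69 (adjusted p = 0.0780), Rpsa at -1.24 (0.0856) and Rplp0 at -1.13 (0.0834). Without replicate 15 instead, 68 members were lower (10.9% of all genes), without young nonmacrophage replicate 2, 36 were (7.35% of all genes), and without any 1 of the 4 old macrophage libraries, 11 to 13 were. For the fits without an old macrophage library no share of all genes is given, so the 11 to 13 have no baseline here. With library quality weights no member passed.

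Marker genes of several cell types also differed between young and old macrophages, in a comparison where 5.57% of all genes were lower and 24.1% higher. Lower in old macrophages were 4 of 7 lymphocyte markers (summed 8848 and 1872 normalized reads in young replicates 9 and 15 and 46.8 to 134 in old), 2 of 12 macrophage markers (823341 and 979361 against 203151 to 342595), 1 of 6 erythroid markers (25579.7 and 19487 against 1720.1 to 6579) and 3 of 7 endothelial markers (14681 and 24840.1 against 2760.0 to 5461). Higher were 5 of 8 Schwann cell and glia markers (70666 and 82842 against 124359 to 375791), 3 of 6 hair cell markers (8.78 and 1172 against 1229 to 1713) and 1 of 8 neuron markers (243035 and 146231 against 255950 to 320768). These 7 sums did not overlap between the ages, and those of the fibroblast and bone markers did, with 1 of 8 higher. The counts of neuron and of fibroblast and bone markers are no larger than the share of all genes that were higher. Sums over other gene sets were not compared, so the 7 sums without overlap have no baseline. The part of these cell types in the result was not tested.

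**Figure D3:**
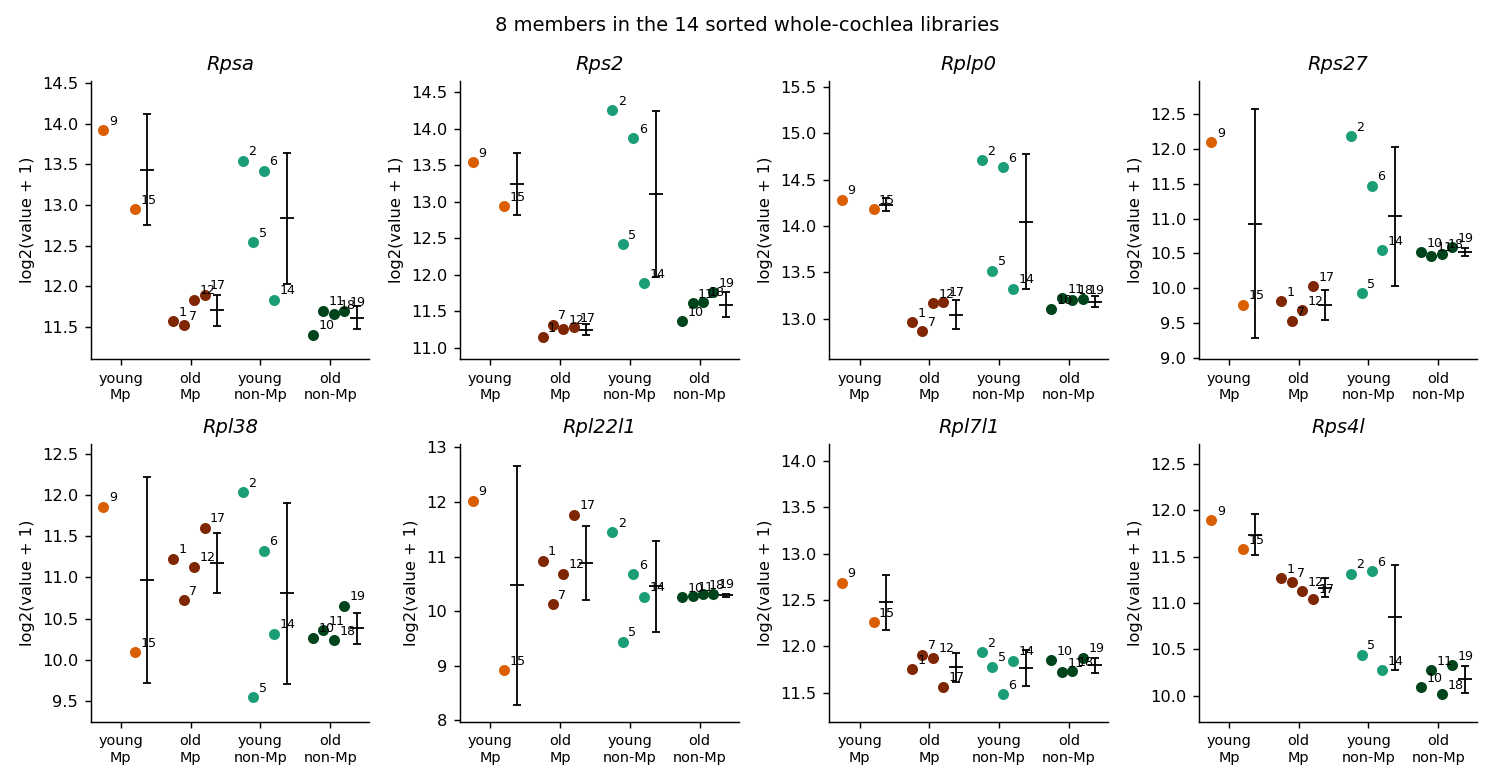
log2(value + 1) of 8 members (y axes) in young and old macrophages (Mp) and nonmacrophages (non-Mp) of the whole cochlea (x axes), with the replicate number beside each point and the mean and SD of each group as bars. Rpsa, Rps2 and Rplp0 lie higher in both young macrophage libraries than in all 4 old ones, whereas Rps27, Rpl38 and Rpl22l1 have young replicate 15 inside or below the old range.

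A few members moved apart from the rest. With each library centred on the median of the members, 5 members passed between old and young macrophages, where 31.9% of all genes passed. Rpl38, whose loss in mice alters the body plan, was higher in old macrophages relative to the other members (1.30 ± 0.36 SE, adjusted p = 0.0171), and so was Rpl22l1, the paralog of Rpl22 (1.51 ± 0.51 SE, adjusted p = 0.0395). Rps18 was lower relative to the other members (-0.90, adjusted p = 0.0367). Before centring, Rpl38 had 3702 and 1091 normalized reads in young macrophages and 2395, 1689, 2244 and 3109 in old ones, and Rpl22l1 had 4165 and 483 in young and 1941, 1120, 1652 and 3477 in old ones. For both genes replicate 15 lay below all 4 old libraries and replicate 9 above them, and the uncentred differences did not pass (0.20, adjusted p = 0.83, and 0.41, adjusted p = 0.693). Rpl22l1 was the member that was higher without replicate 9 (1.96 ± 0.63 SE, adjusted p = 0.0369).

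In some libraries the members' departures ran with coding length. Rpl38 has 210 coding bases and Rpl22l1 366, while Rps18, which departed the other way, has 456, close to the median of 462, and Rpsa has 885 and Rplp0 951. Over the 80 annotated coding members other than Rpl3l and Rpl39l, Spearman's rho between coding length and the difference from the 8 old libraries was 0.61 in young macrophage replicate 15 and 0.62 in young nonmacrophage replicate 5, with the longer genes higher. It was 0.68 and 0.82 in the auditory nerve macrophage and nonmacrophage libraries and 0.82 and 0.74 in those of the lateral wall. In the 3 libraries with high shares it was 0.09, 0.04 and 0.34 (replicates 9, 2 and 6), in young nonmacrophage replicate 14 0.16, in the unsorted library 0.15, and in old libraries -0.23 to 0.34. Over 11974 other genes the same rho was -0.43 to 0.23 in the 19 libraries. These values are across genes of a library, which are not independent replicates.

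Between old and young nonmacrophages no member passed with limma (0.0813% of all genes were lower), although 44 members had an unadjusted p under 0.05. edgeR's quasi-likelihood test on recovered reads also called none, with 66 members under an unadjusted 0.05. The share of all genes under an unadjusted 0.05 was not counted, so the counts of 44 and 66 have no baseline. DESeq2 called 39 lower (6.56% of all genes were lower in that test). The median difference of the members was -0.93, against 0.39 for all genes, and 82 of 84 lay below 0. Rpsa had 11950, 5983, 10966 and 3655 normalized reads in young nonmacrophages (replicates 2, 5, 6 and 14) and 2717, 3326, 3239 and 3323 in old ones (replicates 10, 11, 18 and 19). All young values exceeded all old ones, but the young values spread over more than 3-fold (-1.22 ± 0.34 SE, adjusted p = 0.0822). Rps2 showed the same order, with 19552, 5459, 15001 and 3785 in young and 2627, 3118, 3169 and 3474 in old nonmacrophages (-1.52 ± 0.42 SE, adjusted p = 0.0819).

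Replicates 2 and 6 both exceeded replicates 5 and 14 for 81 of the 84 members, and replicate 2 was the highest young nonmacrophage library for 80. All 4 old libraries lay below replicate 2 for 82 members, below replicate 6 for 81, below replicate 5 for 43 and below replicate 14 for 32. The share of all genes in these orders was not counted, so the counts have no baseline. Without replicate 14, 40 members were lower in old nonmacrophages (7.11% of all genes were lower), with a median of -1.19. Rplp0 had 26776, 11726, 25445 and 10225 in young and 8769, 9540, 9419 and 9468 in old nonmacrophages (-0.86 ± 0.28 SE, adjusted p = 0.111). Rps27 had 4651, 975, 2842 and 1492 in young and 1465, 1410, 1441 and 1544 in old nonmacrophages, so its young library 5 lay below the old ones (-0.52 ± 0.50 SE, adjusted p = 0.56).

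**Figure D4:**
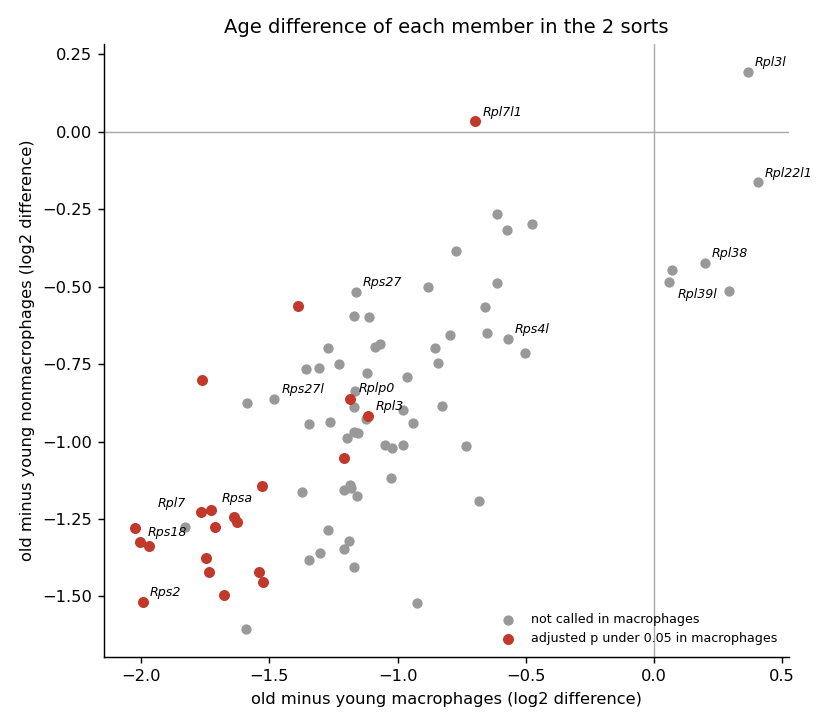
Each point is 1 of the 84 members, with the log2 difference of old minus young macrophages on the x axis and of old minus young nonmacrophages on the y axis; red marks the 21 members with an adjusted p under 0.05 in macrophages. Of the members, 77 lie below 0 on both axes, and Rps2 and Rps18 lie far down on both.

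The 2 age differences share no library, though no label says whether they share mice. The members lay in a similar order in both: Spearman's rho over the 84 members was 0.71, and 0.69 without Rpl3l and Rpl39l. The same rho was not computed over all genes, so it has no baseline. In each sort the difference also ran with coding length, with a rho of -0.37 over 80 members, longer members lying lower. Of the members, 77 lay below 0 in both sorts. The interaction of age and sort, which asks whether the age difference itself differs between the sorts, called no member with limma (7.94% of all genes passed), with 1 member under an unadjusted p of 0.05, none with edgeR and Rpl7l1 with DESeq2. Rpl7l1, a nucleolar paralog of Rpl7 with a role in assembly of the large subunit, had 6591 and 4904 normalized reads in young and 3454, 3844, 3760 and 3026 in old macrophages (-0.70 ± 0.21 SE, adjusted p = 0.0238). In young nonmacrophages it had 3917, 3514, 2868 and 3678 and in old ones 3692, 3374, 3399 and 3765, with wide overlap (0.03 ± 0.17 SE). Its interaction was -0.73 ± 0.27 SE (adjusted p = 0.125), and its values in young nonmacrophage replicates 2 and 6 did not both exceed those in 5 and 14. With the members' median as the reference its macrophage difference turned to 0.41 (adjusted p = 0.554).

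In the old cochlea the 2 sorts carried nearly the same level of ribosomal protein mRNA. The share of reads in macrophages was 1.02 times that in nonmacrophages, the median difference of the 84 members was -0.04 (all genes -0.19), and 40 members lay at or above 0. One member passed in the fit to all libraries, Rps4l, which was higher in macrophages (9.25% of all genes were). The intervals of that fit were wide, and only 18 of the 84 excluded a 2-fold difference either way. When only the 8 old libraries were fitted, whose spread is smaller, 77 of the 84 95% intervals lay within 2-fold, and 32 members passed, 14 higher and 18 lower in macrophages, against 58.3% of all genes called in either direction.

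The members that passed among the 8 old libraries differed by modest amounts. Rpl13 had 7235, 6782, 7567 and 7849 normalized reads in old macrophages and 12137, 12118, 11990 and 12880 in old nonmacrophages (-0.74 ± 0.08 SE, adjusted p = 2.6e-05). The groups did not overlap and each was tight. Rps27 was also lower in macrophages (-0.75 ± 0.12 SE, adjusted p = 0.00041). Rpl34 was higher, with 810, 657, 891 and 1307 in macrophages and 487, 382, 403 and 482 in nonmacrophages (1.02 ± 0.20 SE, adjusted p = 0.0016), and so was Rpl38 (0.79 ± 0.18 SE, adjusted p = 0.0033). Rpl22, an RNA-binding large-subunit protein, was lower in macrophages (-0.61 ± 0.12 SE, adjusted p = 0.0016). Among the members named for age, Rps2 was lower in old macrophages than in old nonmacrophages, without overlap (-0.34 ± 0.10 SE, adjusted p = 0.0148), and Rpsa, Rpl7, Rps18, Rplp0 and Rpl3 did not pass, with differences from -0.14 to 0.09.

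In the young cochlea Rpl7l1 and Rps4l were higher in macrophages (9.18% of all genes were), by 0.71 ± 0.21 SE (adjusted p = 0.0200) and 0.89 ± 0.31 SE (adjusted p = 0.0437), and no member was lower. The median of the members was 0.21 and that of all genes -0.61, and 62 members lay at or above 0. With young nonmacrophages from 0.74% to 2.00% of reads in these genes, 6 of the 84 intervals excluded a 2-fold difference. Without macrophage replicate 9 neither gene passed and Rps21, a small-subunit protein, was lower in macrophages (-2.06 ± 0.69 SE, adjusted p = 0.0401), with the median of the members at -0.53. When only the young libraries were fitted no member passed, none having an unadjusted p under 0.05.

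Rps4l, on chromosome 6 (148354656 to 148355598, plus strand, GRCm38), is annotated in GENCODE as a transcribed processed pseudogene, a retrotransposed relative of the small-subunit gene Rps4x. It had 3811 and 3062 normalized reads in young macrophages and 2465, 2394, 2240 and 2116 in old macrophages. In nonmacrophages it had 2551, 1393, 2601 and 1240 when young and 1089, 1237, 1038 and 1286 when old. All 4 old macrophage libraries lay above all 4 old nonmacrophage libraries (0.99 ± 0.25 SE, adjusted p = 0.0156). Its transcript shares 133 of its 894 words of 50 bases with another gene, Rps4l-ps, and none with Rps4x. Rps4x itself had 1992, 1979, 2196 and 2131 in old macrophages and 2060, 2110, 2175 and 2135 in old nonmacrophages, so its old groups overlapped (-0.03 ± 0.42 SE, adjusted p = 0.976). With age Rps4x was among the 21 lower members in macrophages (-1.68 ± 0.52 SE, adjusted p = 0.0274), where the difference of Rps4l was -0.57 ± 0.31 SE (adjusted p = 0.176). Rpl32l, on chromosome 10 (20208490 to 20208888, plus strand, GRCm38), shares 124 of its 350 words of 50 bases with other genes. It had 2099 and 993 normalized reads in young and 582, 512, 611 and 697 in old macrophages, without overlap but short of the threshold (-1.27 ± 0.52 SE, adjusted p = 0.0777).

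The remaining paralogs were Rpl3l, Rpl22l1, Rpl39l and Rps27l. Rpl3l replaces Rpl3 in heart and skeletal muscle. It was at 0 in 9 of the 19 libraries and reached 32.9 normalized reads in old macrophage replicate 17 and 33 in the auditory nerve macrophage library. Rpl39l, which is enriched in testis, was at 0 in 8 libraries and reached 50.4 in young nonmacrophage replicate 5. A count of 0 allows up to 3 reads, equal to 1.38 to 5.33 normalized reads depending on the library. Rps27l, a p53 target, had 10154 and 3222 in young and 2453, 1652, 1842 and 2362 in old macrophages, without overlap but short of the threshold (-1.48 ± 0.54 SE, adjusted p = 0.0557).

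Other genes of protein synthesis were taken as lists. Fau, Rack1 and Rpl36al, ribosomal proteins whose names fall outside the symbol rule, had no call in any of the 5 comparisons. Of 16 elongation factors and other genes with TOP-type mRNAs, 3 were lower in old macrophages and none higher (median -0.68), where 5.57% of all genes were lower. The 3 were the elongation factor Eef1a1 (-1.74, adjusted p = 0.0026) and the initiation factor 3 subunits Eif3l (-0.67) and Eif3h (-0.83). Of 28 ribosome biogenesis genes, 8 were higher and 1 lower in old macrophages (median 0.49), while 24.1% of all genes were higher and their median was 0.88. The RNA polymerase I subunit Polr1b was higher by 5.73 (adjusted p = 0.0013), and Eif6, which keeps the large subunit from joining too early, was lower (-1.22, adjusted p = 0.0172). Without replicate 9 these counts were 2 lower of 16 (5.94% of all genes) and 3 higher of 28 (18.7% of all genes). In nonmacrophages no gene of these lists passed with age.

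The mitochondrial ribosome is a separate particle that translates the mitochondrial genome. Of its 78 nuclear-encoded proteins 16 were higher in old macrophages than in old nonmacrophages and none lower (median 0.72), and of 74 nuclear subunits of oxidative phosphorylation 29 were higher and none lower (median 1.29), beside the 9.25% of all genes that were higher. In the fit to the 8 old libraries alone, 72 of 78 and 71 of 74 were higher, beside 14 of 84 cytosolic members and 24.9% of all genes. Between old and young macrophages 6 mitochondrial ribosomal proteins were lower and none higher (median -0.60), and 1 oxidative phosphorylation subunit was higher (median -0.33). Of all genes 5.57% were lower and 24.1% higher in that comparison. A test of one list against another was not run.

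**Figure D5:**
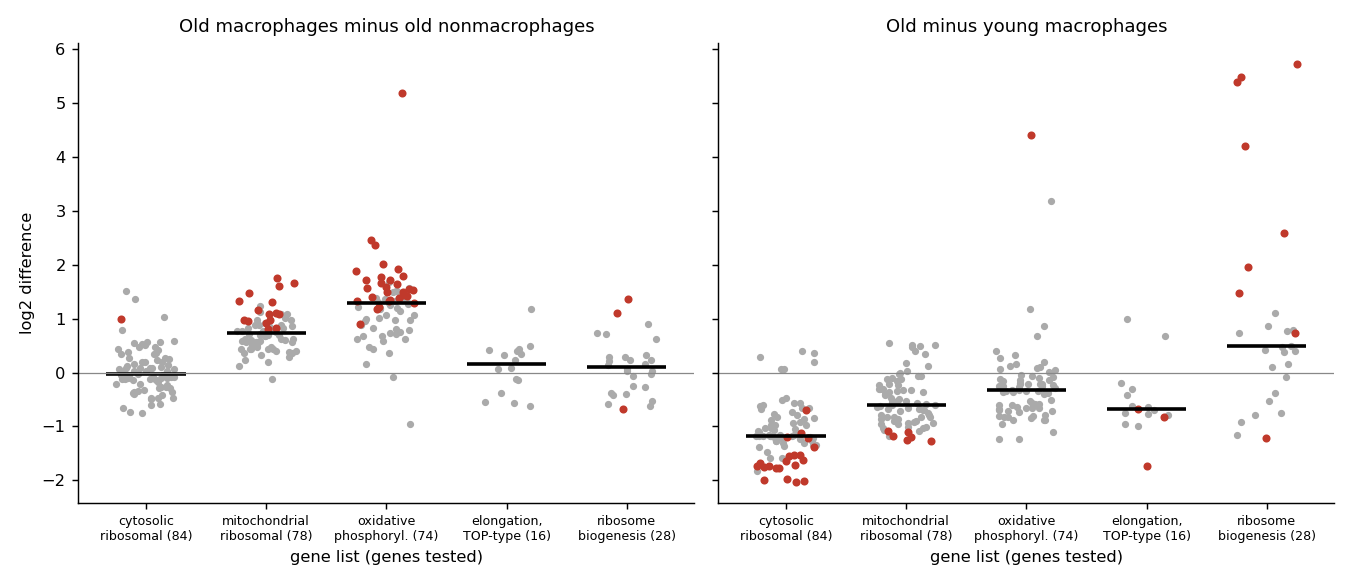
Log2 differences (y axis) of the genes of 5 lists (x axis, genes tested in brackets) between old macrophages and old nonmacrophages (left) and between old and young macrophages (right); red marks an adjusted p under 0.05 and the black line is the median of the list. The medians of the cytosolic members are -0.04 on the left and -1.17 on the right, and that of the oxidative phosphorylation subunits on the left is 1.29.

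The young auditory nerve and lateral wall gave 1 library per sort, so these values have no replicate check. In the auditory nerve the members took 0.61% of reads in macrophages and 0.36% in nonmacrophages. Of the 84, 53 were higher in the macrophage library by at least 1 on the log2(value + 1) scale, as were 19.9% of all genes, none was lower by that much, and the median was 1.13 (all genes -0.01). The largest differences were those of Rpl3l and Rpl39l, which had 33 and 13.2 normalized reads in the macrophage library and none in the nonmacrophage library. The smallest were those of Rpl22 (-0.60) and Rps4l (-0.30). In the lateral wall the shares were 0.55% and 0.49%, 3 members were higher by at least 1 (16.2% of all genes were), and the median was 0.32 (all genes 0). Rpl39l (4.39) and Rpl3l (1.34) were highest there, with 19.9 and 1.53 normalized reads against none, and Rpl30 (-1.91) and Rpl22 (-1.17) lowest. Rpl3l, among the 3 members counted as higher, rested on 1 read, under the 3 reads that a count of 0 allows. The unsorted young cochlea had 0.54% of reads in the members and a median log2 value of 10.70, below the 11.10 to 13.13 of the sorted young whole-cochlea libraries.

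Reads of 50 bases cannot always be assigned between a ribosomal protein gene and its copies. Of the 84 members, Rpl3l and Rpl39l were among the 3 that had no word of 50 bases in their annotated transcripts in common with another annotated gene. In 28 members over 50% of words were shared, the median was 35.8%, and the highest was 95.1% for Rpl35. Rpsa shared 33.3% of its words, many of them with annotated Rpsa pseudogenes. Separate values of members with many shared words are therefore uncertain. Between old and young macrophages the 28 members with over 50% shared had a median of -1.19 and the 56 others -1.17.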

How the data were processed

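RNA libraries from sorted cochlear cells (SMARTer Ultra and Nextera XT, 50-cycle reads) were sequenced, some of them a second time, per the labels' protocols. TopHat2, Partek, DESeq2 and the genome build mm10 are listed in the submitters' processing notes, with no version or role. For each gene symbol the deposited table gives a signal value in every library, here called a value or normalized reads. The headers do not state its scale, and the steps in the values are those of reads scaled by 1 constant in each library. The authors' own p-values and fold changes were not used. The steps between low values gave back whole reads: within 0.1 read, 100% of values under 10000 reads were whole, and 99.6% to 100.0% of all values above 0. Since the values were not raw counts, limma 3.58.1 (R 4.3.3, trend and robust variance) was fitted, with 4 group means, to log2(value + 1) in the 14 whole-cochlea libraries of sorted cells, for the 18441 genes with 1 or more normalized reads in 2 or more libraries, and p-values were adjusted by Benjamini-Hochberg (called under 0.05). Fold changes on this scale understate those of low genes. edgeR 4.0.16 and DESeq2 1.42.0 were run on the recovered reads. The limma step was tested on simulated data.

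Other settings were quantile normalization, a common total, centring on the members, pseudocounts of 0.1 and 10, no filter or a filter of 10, library weights, fits restricted to the compared groups, pooling of substructure libraries and leaving out each library. Shares without the 10 genes with most reads, and other pseudocounts for the single libraries, were added after seeing the data. Libraries of a group differed by more than counting noise (chi-square divided by its degrees of freedom was 48.7 to 884) and were taken as separate replicates.

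The members, the lists and the tests were chosen with earlier results of these data known. Named genes were, in each comparison, the 4 called members with the smallest adjusted p in each direction and called members opposite to the majority, always Rpsa, Rplp0, Rpl3, Rps27 and the paralogs inside the symbol rule, and for single libraries the 2 largest and 2 smallest differences. Some genes under this rule are not reported here. Rps18, Rpl10 and members named from other fits, Rps4x, Rps21 and Rpl30 among them, were chosen after their values were seen. Positions, transcript words and coding lengths (without the stop codon) came from GENCODE M21 (GRCm38), and start windows from RefSeq.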

Additional observations from a re-analysis of the deposited data

Results flagged for a closer look

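Of 48 groups of values tested, 6 held a library whose gap to the nearest other library was large for the range of the group, and chance flags about 1 in 20 groups. Old nonmacrophage replicate 10 was the low library for 3 genes: Rpsa with 2717 normalized reads (the others 3239 to 3326), Rplp0 with 8769 (9419 to 9540) and Rpl7 with 3297 (3586 to 3604). The other 3 were single values above the rest for rarely read paralogs. Rpl3l had 32.9 in old macrophage replicate 17 (the others 0 to 3.26) and 2.14 in young nonmacrophage replicate 14 (the others 0). The value of 2.14 rests on 4 reads, and the 0 of the others allows 4.09 to 5.33 normalized reads, so it is no outlier. Where all other libraries are at 0 any value is flagged, so the rate of 1 in 20 does not describe such groups. Rpl39l had 50.4 in young nonmacrophage replicate 5 (the others 0).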

How the results depend on the processing

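No paired analysis was possible because every library has its own replicate number and no label ties mice across groups. Counts near 0 limit Rpl3l and Rpl39l. Depth nearly coincided with age, and its part in the age differences of the other members was not tested. For all of the following the cause was not tested. Where no value for all genes stands beside a count of members, the count has no baseline here. In the old sort, where 1 member was called, quantile normalization called 2, pooling of the substructure libraries 0, and centring on the members 1, Rpl13, which was lower. Library weights called 33 (18 of them lower) and the fit of the old groups alone 32 (18 lower), the latter beside 58.3% of all genes. Leaving out a library gave 0 to 1, with 0 without old nonmacrophage replicate 18.

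In the young sort, where 2 members were called, quantile normalization, a common total, edgeR and pooling called 1 each, centring, library weights and the fit of the young groups alone 0, and leaving out a library 1 to 6. Without macrophage replicate 9 the 1 call was lower, and without replicate 15, 6 were higher. Between old and young macrophages, where 21 were lower, centring called 5 (beside 31.9% of all genes), DESeq2 41, library weights 0 and pooling 3. Of all genes DESeq2 called 1890 lower and 3934 higher there, against 1027 and 4441 in the main fit. Leaving out a library gave 1 to 68, and the 1 call without replicate 9 was higher. Rpl7l1 turned to 0.41 under centring. Between old and young nonmacrophages, where none was called, DESeq2 called 39 (beside 6.56% of all genes lower) and leaving out a library gave 0 to 40. In the interaction, where none was called, DESeq2 called 1, and 2 were called without macrophage replicate 15. The ratios of the shares and the counts of the single libraries moved by less than the spread between libraries or by at most 1.5 times under every alternative run for them.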
